A study of Mus musculus with 8 samples.

Results

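The 10 genes described here encode RGS proteins, regulators of G-protein signalling, in mouse 3134 mammary cells before and after dexamethasone. The set was the symbols Rgs2, Rgs3, Rgs4, Rgs5, Rgs10, Rgs12, Rgs14, Rgs16, Rgs17 and Rgs19. A member was read from a probe set annotated with exactly 1 of these symbols and, where a gene had several, from the probe set with the highest mean over the 8 arrays. Of the 10 symbols, 9 had such a probe set among 19938 genes tested. The expression of Rgs10 was not analysed here.

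RGS proteins switch off heterotrimeric G proteins. A hormone or neurotransmitter receptor loads the G protein alpha subunit with GTP, and the RGS domain speeds the hydrolysis of that GTP, so that signalling by alpha and by the freed beta-gamma dimer ends sooner. Because many RGS genes are themselves switched on by G protein signals and hormones, they are known as feedback brakes, and RGS2 has been described as glucocorticoid-inducible in airway cells. Rgs2, Rgs3, Rgs4, Rgs5 and Rgs16 belong to the subfamily of mostly small proteins with little beyond the RGS domain, Rgs10, Rgs12 and Rgs14 to a subfamily that includes large multidomain scaffolds, and Rgs17 and Rgs19 to the Rz subfamily.

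The cells derive from the C127 mammary tumour line and carry stably integrated A-fos, a dominant negative form of Fos that blocks DNA binding by AP-1, together with the tetracycline regulator tTa of a Tet-Off switch. These transgenes, and 48 h in charcoal-treated serum before hormone, were common to all 4 groups of 2 arrays each. The groups were untreated (0 h) or treated for 4 h with 100 nM dexamethasone, a synthetic glucocorticoid hormone, and were titled either no tetracycline or plus tetracycline. For every sample the treatment protocol states the opposite tetracycline state to the title, and the tet-off characteristic gives the same state as the title. The tetracycline concentration stated is 1 ug per ml. The names no-titled and plus-titled are used here for the arms, because the labels do not settle in which arm A-fos was on. The labels do not say whether the line is a single clone, or that replicates were separate cultures, so the p-values reflect no more than the spread among these arrays, which may be technical.

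Correlations across genes between replicate arrays were 0.9932 to 0.9956, with 4 to 24 genes over 2-fold apart in a pair and the larger number in the untreated plus-titled group. Dexamethasone responses were present in both arms. Fkbp5, which encodes an Hsp90 co-chaperone, rose by 3.05 and 3.32 on the log2 scale (limma adjusted p = 6.16e-07 and 2.02e-07), and 4 of 6 hormone response genes checked were called higher in each arm (Fkbp5, Tsc22d3, Sgk1 and Per1). Of these 6, Sgk1 was lower in the plus-titled arm at 0 h (-1.02, adjusted p = 0.000884), none was called between the arms at 4 h, where Zbtb16 had the smallest p (-0.24, adjusted p = 0.231), and none for the difference of the responses, where Sgk1 had the smallest (1.11, adjusted p = 0.129). The mammary label was set against cell type markers. Of 6 luminal epithelial markers, Krt8 alone had a mean above that of the median gene (5.66, log2), and Krt18, Krt19, Epcam, Cdh1 and Elf3 were at or below it. Of 6 basal markers Krt14 and Acta2 were above it, of 6 fibroblast markers 5 (Vim at 12.8 and Col1a2 at 11.8), of 6 pericyte markers 3, of 6 endothelial markers 1 (Cdh5), and of 5 leukocyte and 4 pituitary corticotroph markers 0. Krt14 was above the median gene in the no-titled groups (means 6.57 and 6.41 at 0 h and 4 h) but not in the plus-titled groups (5.18 and 5.00). In these bulk samples, fewer cells that express a gene and less RNA per cell cannot be told apart.

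Rgs2 was the 1 measured RGS gene of the 9 whose response to dexamethasone passed the test, which was set at a limma adjusted p under 0.05 over all genes. Its product acts mainly on the Gq class of alpha subunits, which signal through phospholipase C and calcium. In untreated no-titled cells its level was 4.77 and 4.83 (log2, replicates 1 and 2), and after 4 h of dexamethasone it was 6.88 and 7.27. In plus-titled cells it was 4.58 and 4.86 without hormone and 5.58 and 6.15 with it. Every treated array therefore lay above every untreated array, and both treated no-titled arrays lay above both treated plus-titled arrays. The 2 untreated groups overlapped. Their means (4.80 no-titled, 4.72 plus-titled) lay within the 3.95 to 5.30 spanned by the means of 5 leukocyte markers. No detection calls were used, so untreated Rgs2 may lie near background.

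**Figure D1:**
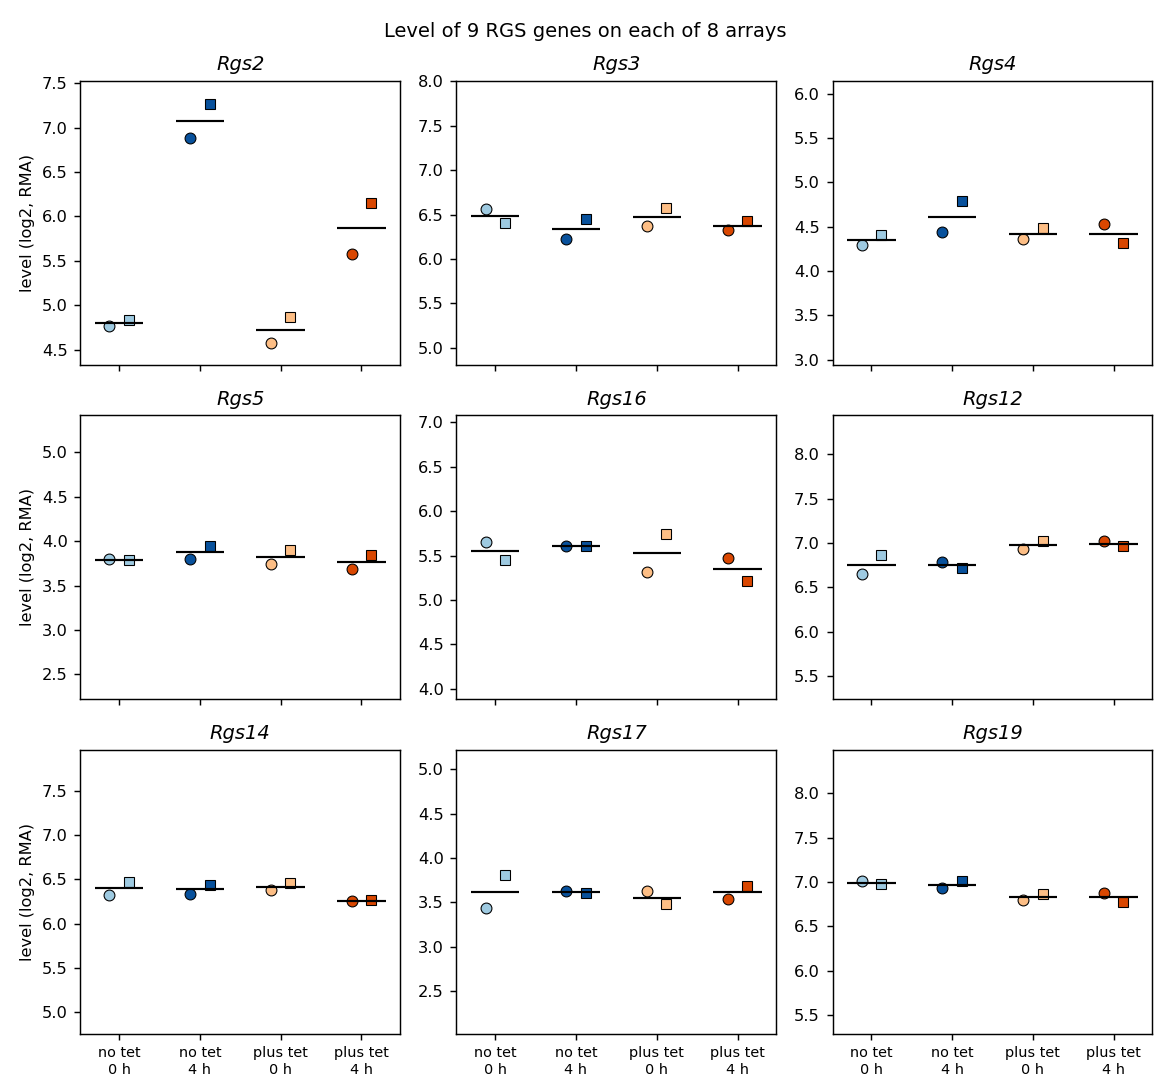
Level of the 9 measured RGS genes on each array (vertical axis, log2 RMA value; all panels span the same number of log2 units), by title-named group; circles are replicate 1, squares replicate 2, and black lines are group means. Rgs2 rises from 4.77 and 4.83 to 6.88 and 7.27 in the no-titled arm and from 4.58 and 4.86 to 5.58 and 6.15 in the plus-titled arm, while group means of the other genes span at most 0.27.

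In the no-titled arm Rgs2 rose 4.85-fold, from 4.80 ± 0.04 to 7.08 ± 0.27 (log2, SD, n = 2), a difference of 2.28 ± 0.19 (SE; 95% interval 1.86 to 2.70; limma adjusted p = 9.87e-05). Of the 9 members, 1 rose, 0 fell and 8 did not pass, in a comparison where 1.03% of all genes were called higher, 0.401% lower and 1.43% in either direction. Of the 8 others 0 had an unadjusted p under 0.05, as 9.1% of all genes did. By size of its rise Rgs2 ranked 13 among 19938 genes, and by p in either direction 35. The call held in each of the 8 fits that left out 1 array, with differences of 2.08 to 2.47 and adjusted p up to 0.00143. The mean level of Rgs2 over the 8 arrays was 5.62, so a filter at the level of the median gene, 5.66, left it untested in every comparison.

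In the plus-titled arm Rgs2 rose 2.21-fold, from 4.72 ± 0.20 to 5.86 ± 0.41 (SD, n = 2), a difference of 1.14 ± 0.19 (SE; 95% interval 0.72 to 1.57; limma adjusted p = 0.0166). Here too 1 member rose, 0 fell and 8 did not pass, with 0.823% of all genes called higher, 0.281% lower and 1.1% in either direction. At an unadjusted p under 0.05, which 9.98% of all genes reached, the 8 others counted 0. By size Rgs2 ranked 50, and by p in either direction 126. In the 8 fits that left out 1 array the difference stayed between 0.86 and 1.43, but the call did not hold in all. It was lost without replicate 1 of the untreated group (1.00, adjusted p = 0.174), without replicate 2 of that group (1.29, adjusted p = 0.0724) and without replicate 2 of the treated cells (0.86, adjusted p = 0.138). With replicate 1 of the treated cells left out it held (1.43, adjusted p = 0.00746), as it did without any 1 of the no-titled arrays (adjusted p 0.016 to 0.0271).

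The arms were then compared at each time. Without hormone the difference of Rgs2 (plus-titled minus no-titled) was -0.08 ± 0.19 (SE; 95% interval -0.50 to 0.34; limma adjusted p = 0.858), and 0 of 9 members were called, where 9.38% of all genes were (6.2% higher and 3.18% lower). At an unadjusted p under 0.05 there were also 0 members, against 22.8% of all genes. At 4 h of dexamethasone Rgs2 was lower in the plus-titled arm by -1.21 ± 0.19 (95% interval -1.64 to -0.79; adjusted p = 0.00336), a level 2.32-fold below that of the no-titled arm. It was the 1 member called, lower, in a comparison where 4.32% of all genes were called lower, 5.29% higher and 9.61% in either direction. Of the 8 others 0 had an unadjusted p under 0.05, against 22.4% of all genes. Rgs2 ranked 25 by size among the differences toward lower levels, and 379 by p in either direction. Without any 1 of the 8 arrays the difference lay between -1.5 and -0.93 with adjusted p of 0.00461 to 0.0307.

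Whether the hormone response itself depended on the arm was tested by the difference of the 2 responses. For Rgs2 this was -1.13 ± 0.27 (log2, SE; 95% interval -1.73 to -0.54), a 2.19-fold smaller response in the plus-titled arm. The unadjusted limma p was 0.00162 and the adjusted p 0.567, so the difference was not called. Over all genes 0.00502% were called here and 5.11% had an unadjusted p under 0.05. By p Rgs2 ranked 56, and by size among the differences below 0 it ranked 9. Over the fits without 1 array the value stayed between -1.42 and -0.85 and the adjusted p between 0.489 and 0.999. An adjustment restricted to 590 genes that passed for the average of both responses, chosen after the data were seen, gave Rgs2 an adjusted p of 0.0273 as 1 of 53 genes called, of which 35 responded more in the no-titled arm. With 1 array left out and those genes chosen again, that call held in 3 of 8 fits and was lost in 5 (adjusted p 0.0142 to 0.0773). It was lost without either untreated no-titled array, without replicate 2 of the treated no-titled group, without the first treated plus-titled array and without the second untreated plus-titled array. Of the 105 genes called higher in both arms, 75 had a difference of responses below 0, with a median of -0.16, and 2 had one more negative than that of Rgs2. The comparison at 4 h and the difference of responses use the same treated arrays and are not independent.

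Markers of other cell types were set beside these results. In the no-titled response 0 of 39 markers were called (1.43% of all genes), and in the plus-titled response 1 (1.1% of all genes), the pericyte marker Pdgfrb (-0.75). Between the arms 7 of 39 were called at 0 h, against 9.38% of all genes, and 6 at 4 h, against 9.61%. At 4 h these were Acta2 (1.45), Mcam (1.19), Pdgfra (0.59) and Notch3 (0.52), higher in the plus-titled arm, and Krt14 (-1.41) and Col1a2 (-0.65), lower. The pericyte markers other than Mcam and Notch3 were not called at 4 h (Pdgfrb 0.30, Cspg4 0.12, Abcc9 -0.11 and Kcnj8 -0.23). The summed log2 level of the 6 pericyte markers lay between 35.6 and 36.8 on the no-titled arrays and between 37.5 and 39.4 on the plus-titled arrays. At 0 h, where the difference of Rgs2 was -0.08, 3 of the 6 were called higher in the plus-titled arm (Mcam, Notch3 and Pdgfrb), and Cspg4 (-0.25), Kcnj8 (0.01) and Abcc9 (0.04) were not called. The summed level of the 6 luminal markers also separated the arms, the other way, at 30.4 to 30.9 on the no-titled and 29.2 to 30.1 on the plus-titled arrays, with 0 of 6 called at either time. The part of these markers in the difference of Rgs2 at 4 h was not tested.

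**Figure D2:**
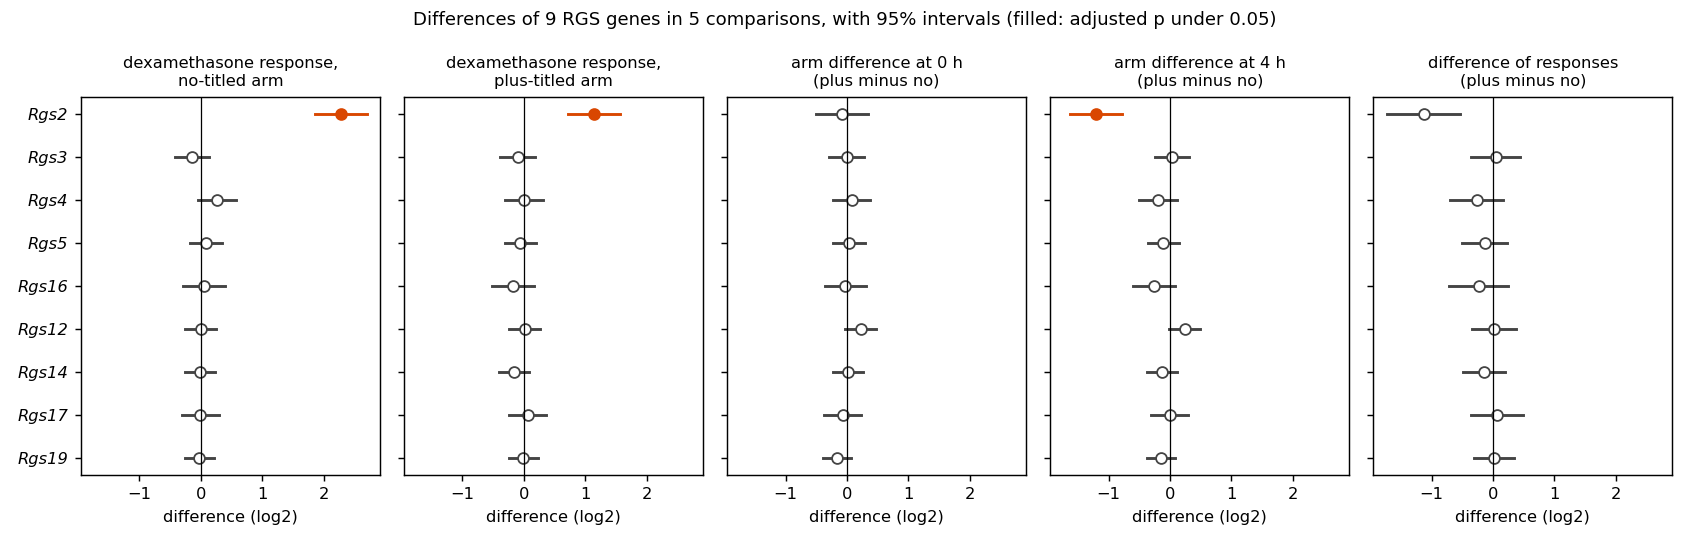
Log2 differences of the 9 RGS genes (rows) in the 5 comparisons (panels), with 95% intervals from the limma model; filled orange points have an adjusted p under 0.05 over all 19938 genes. Rgs2 is called at 2.28, 1.14 and -1.21 in the first, the second and the fourth panel, and its interval in the last panel, -1.73 to -0.54, lies below 0 although the adjusted p was 0.567.

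The sequence just before the start of Rgs2 is shown because it was the member that moved. Rgs4, Rgs5 and Rgs16 are close relatives on the same chromosome that were not called. Of these, the sequences of Rgs4 and Rgs16 are shown as examples. Each is the 250 bases before the RefSeq start in mouse build GRCm38.p6, 5′ to 3′ on the gene's strand. Rgs2 is at chr1:144004150-144004399 (minus strand), Rgs4 at chr1:169747643-169747892 (minus strand) and Rgs16 at chr1:153740103-153740352 (plus strand). Capitals mark GC boxes (GGGCGG, or CCGCCC on the other strand), the short form of the cAMP response element (TGACG, or CGTCA) and TATA boxes (TATAAA).
Rgs2: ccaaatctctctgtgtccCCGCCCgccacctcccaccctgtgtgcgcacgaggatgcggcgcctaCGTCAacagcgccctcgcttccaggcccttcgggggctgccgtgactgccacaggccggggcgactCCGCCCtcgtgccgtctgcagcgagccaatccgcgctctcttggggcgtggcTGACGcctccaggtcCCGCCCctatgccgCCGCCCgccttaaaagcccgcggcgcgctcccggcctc
Rgs4: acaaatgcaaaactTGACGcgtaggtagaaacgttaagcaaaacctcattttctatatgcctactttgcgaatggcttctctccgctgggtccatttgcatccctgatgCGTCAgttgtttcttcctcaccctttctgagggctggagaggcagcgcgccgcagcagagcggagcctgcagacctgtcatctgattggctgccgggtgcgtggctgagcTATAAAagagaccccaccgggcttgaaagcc
Rgs16: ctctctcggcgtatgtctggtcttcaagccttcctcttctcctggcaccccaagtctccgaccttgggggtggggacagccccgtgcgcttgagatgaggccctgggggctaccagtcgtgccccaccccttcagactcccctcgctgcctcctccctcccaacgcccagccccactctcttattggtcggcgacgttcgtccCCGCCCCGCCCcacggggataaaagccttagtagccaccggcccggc

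The Rgs2 window was 72.4% G and C, that of Rgs16 66.4% and that of Rgs4 53.6%. Rgs2 held GC boxes beginning at -232, -119, -52 and -38 from the start and short cAMP elements at -185 and -67. Rgs4 held short cAMP elements at -236 and -141 and a TATA box at -31, and the GC boxes of Rgs16 at -47 and -42 overlap by a base. Among 13 windows found for 9 of the 10 symbols (none for Rgs14), 9 held a GC box, against 32.7% of all 32851 windows of this length. The short cAMP element was in 3, those of Rgs2, Rgs4 and Rgs12, against 17.8% of all, the TATA box in 3 against 12.4%, and the full element TGACGTCA in 0 against 1.55%. The AP-1 site TGANTCA was found in 2, a window of Rgs12 and that of Rgs17, against 6.75% of all. Neither the spaced core ACANNNTGT of the glucocorticoid receptor's site (5.84% of all windows) nor the longer palindrome with GN before and NC after that core (0.387%) was in any of the 13. Both strands were searched, the short cAMP element lies within the full one and the core within the palindrome. A match here is a description of letters and not a binding site, and windows that held no match say nothing of sites elsewhere.

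On chromosome 1, Rgs2 lies in the RefSeq order between Uchl5 and 4 further RGS genes in a row, Rgs13, Rgs1, Rgs21 and Rgs18. None of these was called in any of the 5 comparisons. In the no-titled response their differences were -0.05 for Rgs13, -0.00467 for Rgs1, -0.09 for Rgs21 and 0.05 for Rgs18, against 2.28 for Rgs2. In the plus-titled response they were -0.09, 0.01, -0.33 and -0.17. Whether these 4 genes were expressed in the cells was not tested, so their small differences do not show that expressed neighbours failed to respond.

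Rgs2 was the 1 member whose 4 group means spanned at least 1 log2 unit, as those of 2.29% of all genes did. Among the other 19937 genes, 3 were closest to it by the root mean square difference of centred log2 levels over the 8 arrays. Sorbs2, an adaptor protein gene of the actin cytoskeleton, was nearest at 0.20, followed by Ampd3, an AMP deaminase gene, at 0.28 and Slc25a33, which encodes a mitochondrial nucleotide carrier, at 0.29, where the median over all genes was 0.98. Sorbs2 rose by 2.00 in no-titled cells and 0.96 in plus-titled cells, Ampd3 by 2.28 and 1.46, and Slc25a33 by 1.84 and 1.54. At 4 h Sorbs2 was lower in the plus-titled arm by -1.32 (limma adjusted p = 0.000324) and Ampd3 by -0.98 (adjusted p = 0.00135), and Slc25a33 at -0.46 was not called (adjusted p = 0.113). The difference of responses was not called for any of them (Sorbs2 -1.04, adjusted p = 0.214, Ampd3 -0.81, 0.49, and Slc25a33 -0.30, 0.997). These genes were chosen for their likeness over the same arrays, so their values are a description.

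**Figure D3:**
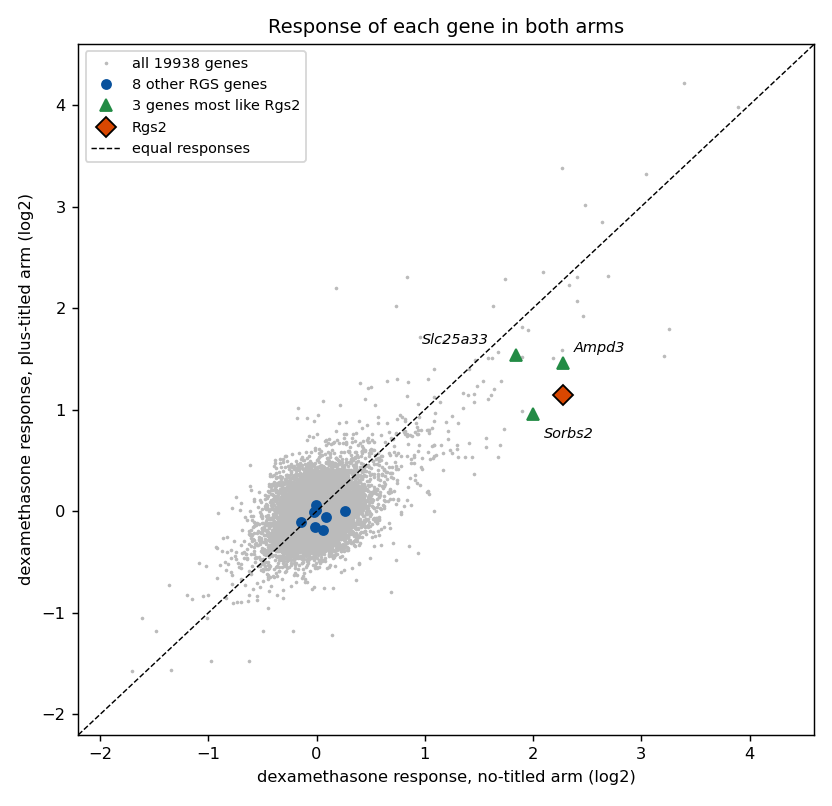
Dexamethasone response of each gene in the no-titled arm (horizontal axis, log2) against that in the plus-titled arm (vertical axis, log2), for all 19938 genes in grey, with the dashed line marking equal responses. Rgs2 (diamond) lies at 2.28 and 1.14, below the line and beside Sorbs2 and Ampd3, and the 8 other RGS genes lie near the origin.

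Rgs4, whose product limits Gq and Gi signals and is best known in neurons, had levels of 4.29 and 4.40 untreated and 4.44 and 4.79 treated in the no-titled arm. In the plus-titled arm they were 4.36 and 4.48 untreated and 4.53 and 4.31 treated. The no-titled groups did not overlap, but the difference of 0.27 ± 0.14 (SE; 95% interval -0.04 to 0.57) did not pass (limma adjusted p = 0.644), and in the plus-titled arm it was 0.000427. Rgs16, which acts on Gi and Gq, had 5.65 and 5.45 untreated and 5.61 and 5.61 treated in the no-titled arm, and 5.31 and 5.74 untreated and 5.47 and 5.22 treated in the plus-titled arm. At 4 h both plus-titled arrays were below both no-titled arrays, a difference of -0.26 ± 0.15 (95% interval -0.60 to 0.08; adjusted p = 0.37).

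Rgs5, an RGS gene known as a marker of pericytes, stayed between 3.69 and 3.95 on all 8 arrays. It differed by 0.08 and -0.06 with hormone and by 0.03 and -0.11 between the arms at 0 h and 4 h, none of which passed. Its mean of 3.81 was under that of every measured leukocyte marker (lowest 3.95), so it may lie near background. Rgs3, which also binds beta-gamma dimers, had levels of 6.23 to 6.58 and was the 1 member with more than 1 probe set. Its other probe set, with a mean of 5.61, was not called in any comparison either. At 4 h the probe sets differed in sign, at 0.03 and -0.13 between the arms.

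Of the multidomain members, Rgs12, a scaffold that binds Gi and Ras pathway proteins, had the most even difference between the arms. Its level was 6.65 and 6.86 untreated and 6.79 and 6.72 treated in the no-titled arm, and 6.94 and 7.02 untreated and 7.02 and 6.97 treated in the plus-titled arm. All 4 plus-titled arrays were above all 4 no-titled arrays, by group means of 0.22 ± 0.11 at 0 h (SE; 95% interval -0.03 to 0.47; limma adjusted p = 0.281) and 0.24 ± 0.11 at 4 h (-0.01 to 0.49; adjusted p = 0.248). Neither passed. The share of all genes whose arms lay fully apart over 4 arrays each was not counted. Rgs14, a Gi and Ras binding scaffold, lay between 6.25 and 6.47, and its treated plus-titled arrays were the lowest of the 8, a response of -0.16 ± 0.11 (adjusted p = 0.709).

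Rgs19, which encodes the Gi regulator GAIP, lay at 6.94 to 7.01 on the no-titled arrays and at 6.77 to 6.88 on the plus-titled arrays. The arms did not overlap, with differences of -0.16 ± 0.11 at 0 h (SE, limma adjusted p = 0.419) and -0.14 ± 0.11 at 4 h (adjusted p = 0.486), and neither passed. How many of all genes separate the arms in this way was not counted. Rgs17, a Gz and Gi regulator, lay between 3.43 and 3.81 and differed by at most 0.07 in size over the 4 comparisons of groups.

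Taking the 8 members other than Rgs2 together, hormone differences ran from -0.14 (Rgs3) to 0.27 (Rgs4) in the no-titled arm and from -0.18 (Rgs16) to 0.06 (Rgs17) in the plus-titled arm. Their 95% intervals reached a 1.49-fold rise in the former and a 1.43-fold fall in the latter. Between the arms they ran from -0.16 to 0.22 at 0 h and from -0.26 to 0.24 at 4 h. The difference of responses ran from -0.27 (Rgs4) to 0.06 (Rgs17), with intervals between -0.72 and 0.49. Over the 8 arrays Rgs17 (3.60), Rgs5 (3.81) and Rgs4 (4.45) had means under 5.30, the highest of 5 leukocyte markers. For these genes small differences do not show stable expression, because no detection calls were used. Rgs3, Rgs12, Rgs14 and Rgs19 lay above the median gene.

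Groups of 2 arrays that do not overlap were common in all genes. In the no-titled response 3 of 9 members had them (Rgs2, Rgs4 and Rgs5), against 40.5% of all genes, and in the plus-titled response 2 (Rgs2 and Rgs14), against 36.1%. Between the arms there were 2 at 0 h (Rgs12 and Rgs19), against 49.8%, and 5 at 4 h (Rgs2, Rgs12, Rgs14, Rgs16 and Rgs19), against 51.7%. The median difference of the 9 members was -0.00304 and -0.00612 in the responses and -0.00554 and -0.13 between the arms at 0 h and 4 h, where that of all genes was 0.0061, -0.00706, -0.02 and -0.01. For the difference of responses it was -0.14, against -0.01 for all genes.

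The wider G protein pathway was read from 6 lists of RGS-domain genes, subunits, effectors, regulators and receptors, in which 111 of 123 genes were measured. In the no-titled response 0 of the 111 were called (1.43% of all genes), in the plus-titled response 1 was higher (0.901%, against 1.1% of all genes called), and for the difference of responses 0 were called (0.00502% of all genes). Between the arms 7 were higher and 1 lower at 0 h (7.21%, against 9.38% of all genes), and 8 were higher and 3 lower at 4 h (9.91%, against 9.61%). The shares between the arms were near those of all genes.

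**Figure D4:**
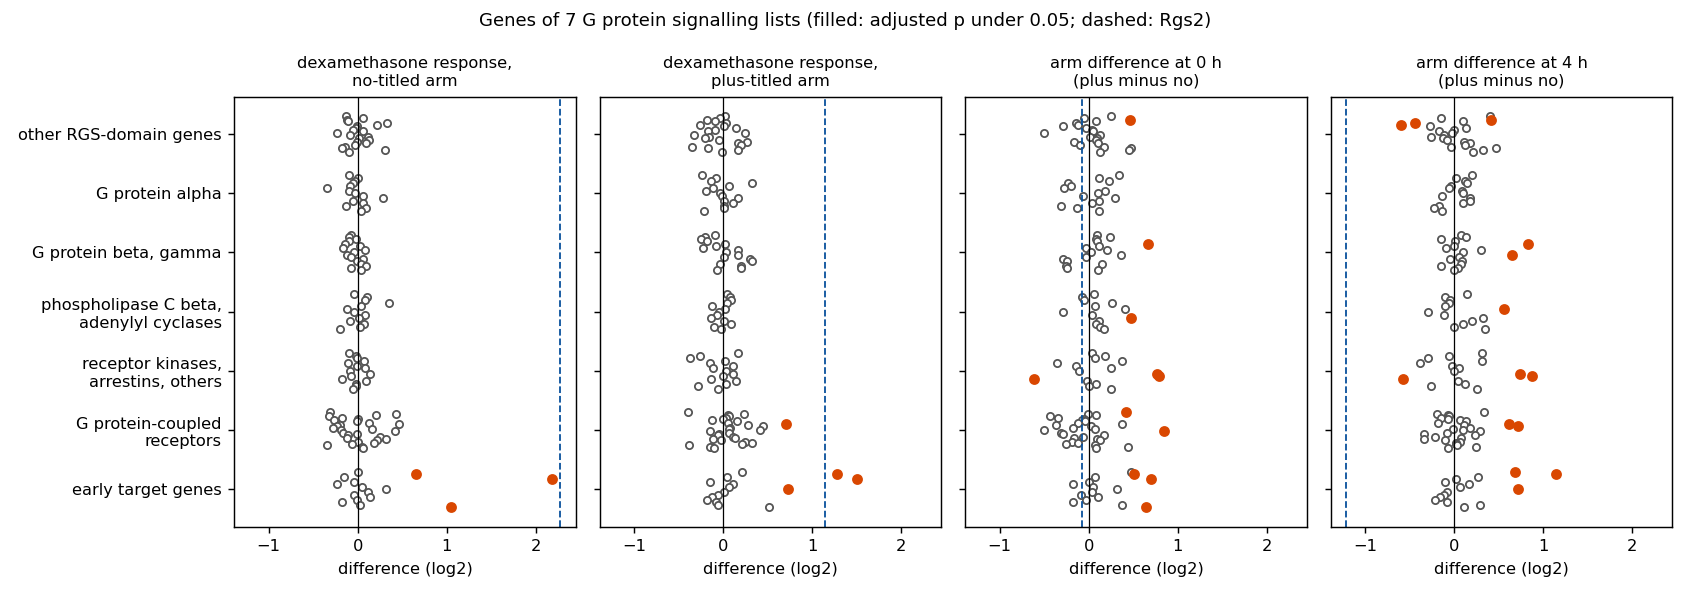
Log2 differences (horizontal axis) of the measured genes of 7 lists (rows) in 4 comparisons (panels); each point is a gene, filled orange where the limma adjusted p over all genes was under 0.05, and the dashed line marks Rgs2. In the no-titled response the called genes are Dusp1 (2.19), Sik1 (1.05) and Ccn2 (0.65), all among the early target genes, and Rgs2 at 2.28 lies beyond them.

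Among 22 other RGS-domain genes and RGS binding proteins, 0 were called in either hormone response. Those with the smallest p were Axin1 in the no-titled arm (0.33, limma adjusted p = 0.369) and Rgs7bp in the plus-titled arm (0.27, adjusted p = 0.406). Arhgef11, an exchange factor gene with an RGS domain, was higher in the plus-titled arm by 0.46 at 0 h (adjusted p = 0.0283) and 0.41 at 4 h (adjusted p = 0.0443). At 4 h Axin2 and Axin1, RGS-domain scaffolds of Wnt signalling, were lower by -0.60 (adjusted p = 0.0114) and -0.44 (adjusted p = 0.0422). Without 1 array, Arhgef11 was lost in 3 of 8 fits at 0 h and 6 at 4 h, Axin2 in 3 and Axin1 in 4 (adjusted p up to 0.245). A fit of the compared arrays alone ended the calls of Arhgef11 at 0 h and 4 h (adjusted p = 0.0564 and 0.0668) and of Axin1 (0.0524), and median centring those of Arhgef11 at 4 h (0.0607) and Axin1 (0.0515). The difference of responses was not called for any, with the smallest p for Axin2 (-0.48, adjusted p = 0.902). List medians were -0.01, -0.04, 0.06, -0.01 and -0.05 in the 2 responses, the 2 arm comparisons and the difference of responses.

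Of 15 measured alpha subunit genes, which encode the targets of RGS proteins, 0 were called in any of the 5 comparisons. Those with the smallest p were Gnai1 (-0.34, limma adjusted p = 0.306) and Gna14 (0.32, adjusted p = 0.35) in the no-titled and plus-titled responses. Between the arms they were Gnat2 at 0 h (-0.31, adjusted p = 0.107) and Gnat3 at 4 h (-0.23, adjusted p = 0.352), and Gna14 for the difference of responses (0.38, adjusted p = 0.967). The list medians, in the same order of comparisons, were -0.04, -0.01, 0.11, 0.08 and -0.07.

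Of 17 beta and gamma subunit genes, Gnb5, the beta subunit that pairs with Rgs6, Rgs7, Rgs9 and Rgs11, was higher in the plus-titled arm by 0.66 ± 0.11 at 0 h (SE, limma adjusted p = 0.00395) and 0.83 ± 0.11 at 4 h (adjusted p = 0.0012). Both calls held in all 8 fits without 1 array. Gng2 was higher by 0.64 at 4 h (adjusted p = 0.0386), a call lost in 7 of 8 fits (adjusted p up to 0.26, value 0.34 to 0.95) and with the compared arrays alone (0.0829). In the hormone responses 0 were called, with the smallest p for Gnb5 (-0.14, adjusted p = 0.827) and Gnb3 (-0.25, adjusted p = 0.517), and Gngt1 had it for the difference of responses (0.28, adjusted p = 0.997). The medians were -0.04, 0.01, 0.09, 0.05 and 0.07.

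Of 13 effector genes, Adcy9 was higher in the plus-titled arm at 0 h (0.48, limma adjusted p = 0.0417) and Adcy6 at 4 h (0.55, adjusted p = 0.0238), both adenylyl cyclase genes. The first was lost in 6 of 8 fits without 1 array and the second in 4 (adjusted p up to 0.188 and 0.154). In the responses 0 were called, with the smallest p for Adcy4 (0.35, adjusted p = 0.508) and Adcy9 (-0.14, adjusted p = 0.796), and Adcy4 had it for their difference (-0.31, adjusted p = 0.997). The medians were 0.03, 0.01, 0.08, -0.00536 and -0.00765.

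Receptor kinases mark active receptors for arrestin, the step that ends signalling above the G protein. Of 15 measured genes of receptor kinases, arrestins and other regulators, Grk5 and Grk4 were higher in the plus-titled arm, by 0.79 and 0.77 at 0 h and by 0.88 and 0.74 at 4 h, and Grk6 was lower, by -0.62 and -0.58 (limma adjusted p between 0.00402 and 0.0155 for these 6 values). Without 1 array Grk5 was lost in 1 of 8 fits at 0 h and in 0 at 4 h, Grk4 in 0 and 2, and Grk6 in 2 and 2 (adjusted p up to 0.141). In the responses 0 were called, with the smallest p for Grk6 (-0.17, adjusted p = 0.822) and Gnb1l (-0.37, adjusted p = 0.17), and Gnb1l had it for their difference (-0.36, adjusted p = 0.953). The medians were -0.02, 0.00285, 0.07, 0.04 and -0.000714.

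Of 29 measured receptor genes, F2r, the thrombin receptor PAR-1, rose by 0.70 ± 0.11 in the plus-titled arm (SE, limma adjusted p = 0.0128) and had 0.46 in the no-titled arm (adjusted p = 0.0941). At 4 h it was higher in the plus-titled arm by 0.61 (adjusted p = 0.00708). Lpar1, a lysophosphatidic acid receptor gene, was higher there by 0.72 at 4 h (adjusted p = 0.0024), with a difference of responses of 0.69 that was not called (adjusted p = 0.485). At 0 h Lpar6 (0.85, adjusted p = 0.00403) and the chemokine receptor gene Ackr3 (0.42, adjusted p = 0.048) were higher. Without 1 array the response of F2r was lost in 3 of 8 fits, its difference at 4 h in 2 and Ackr3 in 8 (adjusted p up to 0.107, 0.0724 and 0.263), and Lpar1 and Lpar6 held in all. Ackr3 was also lost with the replicate block (adjusted p = 0.0511) and with the compared arrays alone (0.0761). The medians were -0.00306, 0.06, -0.06, 0.03 and 0.06.

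Among 15 measured early targets of G protein and calcium signals, 3 rose and 0 fell in each arm, where 1.03% (no-titled) and 0.823% (plus-titled) of all genes rose. Dusp1, a MAPK phosphatase gene also known as a glucocorticoid target, rose by 2.19 and 1.51 and the matricellular gene Ccn2 by 0.65 and 1.28. The kinase gene Sik1 rose in the no-titled arm (1.05, limma adjusted p = 0.00247) and Fos in the plus-titled arm (0.73, adjusted p = 0.0236). Neither was called in the other arm. Whether the Fos probe set also reads the A-fos transgene was not tested. In the plus-titled arm Dusp1 (0.70), Sik1 (0.64) and Ccn2 (0.51) were higher at 0 h, and Ccn2 (1.14), Fos (0.71) and Ccn1 (0.68) at 4 h, which is 3 of 15 at each time against 6.2% and 5.29% of all genes higher. Without 1 array, 3 of 8 fits lost the response of Ccn2 in the no-titled arm (adjusted p up to 0.179) and 3 that of Fos (up to 0.163). At 0 h Dusp1 and Sik1 were lost in 3 and Ccn2 in 2, and at 4 h Ccn1 in 3 and Fos in 1 (up to 0.209). With the compared arrays alone the response of Fos (adjusted p = 0.0611) and the difference of Ccn1 at 4 h (0.0608) were lost. The difference of responses was not called for any, with the smallest p for Ccn2 (0.63, adjusted p = 0.587). The medians were 0.03, 0.04, 0.07, 0.06 and -0.02.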

How the data were processed

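The authors deposited log2 expression values for 28888 probe sets on 8 arrays. Per the submitters' processing notes they were made with Affymetrix Expression Console and RMA, whose versions were not given in the sources used here. Quantile normalization in RMA hides changes shared by most genes. Separately, folds of dim genes can be compressed in array values. No detection calls were used. Genes were named through the array annotation and, by gene number, a RefSeq mouse table used for names and gene order. Exactly 1 symbol was given for 21789 probe sets, and the brightest per symbol left 19938 genes. Groups follow the sample titles. Group differences came from limma 3.58.1 (R 4.3.3) through lmFit and eBayes (4 residual degrees of freedom, prior 6.64), 2-sided, with Benjamini-Hochberg adjustment over all genes, and called under 0.05. The procedure was tested on simulated data.

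Every member was named. Of each list, up to 4 called genes per comparison or, with none, that with the smallest p were named, and the 3 most similar profiles for members spanning 1 log2 unit. The members and lists were chosen with earlier results of these data known. Promoter windows are RefSeq's (GRCm38.p6). The alternatives tried were median centring, trend and robust variance, a fit of just the arrays in a comparison, the replicate block, dim-gene filters, the mean of probe sets, and each array left out. The number of arrays limits the precision.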

Additional observations from a re-analysis of the deposited data

How the results depend on the processing

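Rgs2 kept its direction and its side of the threshold in all comparisons run under the following alternatives. These were trend and robust variance, the replicate number as a block, a fit of the compared arrays alone and median centring. The mean of probe sets could not change the differences of Rgs2, because that gene had 1 probe set. With the replicate block the number of members called was unchanged, at 1 in each response, 0 between the arms at 0 h, 1 at 4 h and 0 for the difference of responses. Of 19938 genes the block called 276 and 222 in the responses, 2028 and 2108 between the arms and 1 for the difference of responses. Among the called pathway genes it ended the call of Ackr3 at 0 h (adjusted p = 0.0511) and no other. Same-numbered arrays deviated together at correlations over all genes of -0.0191 to 0.133, so the numbers were not taken as pairs. For Rgs2, however, replicate 2 was above replicate 1 in every group. The block lowered the SE of its group differences from 0.19 to 0.13. Its limma adjusted p became 0.00537 in the plus-titled response and 0.281 for the difference of responses. The filter that kept genes at or above the median level left Rgs2 (mean 5.62, median gene 5.66) untested, and members called fell to 0 in both responses and at 4 h. A filter on genes under the lower quartile, added after seeing the data, kept Rgs2 called (adjusted p = 3.83e-05, 0.00867 and 0.0017). Leaving out 1 array, the plus-titled response had 0 to 1 members called. Adjusting the difference of responses over mean-response genes, also chosen after seeing the data, gave 1. Of 562 values of the other 8 members under alternatives 0 were called, and 4 changed sign by at least their SE.

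Over all genes, trend and robust variance called 461 in the no-titled response (285 in the main model), 370 in the plus-titled response (220) and 11 for the difference of responses (1). The median-level filter gave 493, 399 and 8, and 2825 at 0 h (1870), and median centring gave 2 for the difference of responses. Without 1 array the counts were 134 to 291 and 80 to 187 in the responses, 589 to 1642 and 654 to 2128 (1916 in the main model) between the arms, and 0 to 2 for the difference of responses.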
